A study of Caenorhabditis elegans with 2 samples.

Results

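The genes described here carry the inductive signal for the vulva of the nematode Caenorhabditis elegans, from the ligand LIN-3 to the kinase MPK-1. They were chosen by name: 10 genes (lin-3, let-23, lin-2, lin-7, lin-10, sem-5, let-60, lin-45, mek-2 and mpk-1), of 19973 protein-coding genes on the 6 nuclear chromosomes. All 10 symbols matched 1 gene each in the annotation. The data are chromatin immunoprecipitation and sequencing (ChIP-seq) of LIN-13, which has zinc fingers and belongs to the class B synthetic multivulva (synMuv) proteins, in mixed-stage embryos. The samples were 2 biological replicates of strain OP51, genotype unc-119(ed3) III; wgIs51, in which the transgene wgIs51 expresses an eGFP fusion of LIN-13 (the labels name no promoter for it). Both replicates therefore came from 1 transgenic line and both carry the unc-119 mutation. The antibody field of the labels names lin-13, and the labels do not say whether the tag or LIN-13 was recognised. Animals were whole and of mixed sex, so a signal is an average over all cells, and binding in few cells cannot be told apart from weak binding in many. There was no second condition, and the listed control was not analysed here, so the values below are descriptions of 1 group and no p-value is given.

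In vulval induction the anchor cell of the gonad secretes LIN-3, an epidermal growth factor, which activates the receptor LET-23 on neighbouring precursor cells. The adaptor SEM-5 links the receptor to the small GTPase LET-60 Ras, which switches on the kinases LIN-45 Raf, MEK-2 and MPK-1 ERK in turn, while LIN-2, LIN-7 and LIN-10 keep LET-23 at the basolateral membrane. SynMuv proteins are known to keep lin-3 repressed outside its normal source. Vulval induction takes place in larvae, a stage not sampled here, and several of these genes also act in embryos and in other tissues.

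Each replicate had a list of 30000 regions, and 30000 more came from the pooled replicates. Regions are ranked within a list by the peak caller's signal, whose scale differs between lists, so signals are compared within a list only. The authors' final set, made with the irreproducible discovery rate (IDR), held 1534 peaks and equalled the first 1534 ranks of the pooled list, which end at a signal of 32.8. Signals in the whole pooled list ran from 7.11 to 488 with a median of 10.5. The lists are filled to a fixed length and reach far into background, which the q values show: q is the share of false regions that the caller expects at or above a given signal, and it reached 0.848 at rank 29641, a region near lin-10. Depth is unknown, because no read counts come with the regions. A position is that of a summit, the base with the highest signal in a region, and a region is counted as found in a replicate where that replicate has a summit within 100 bp. Coordinates are those of build ce11, counted from 1.

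LIN-13 had an IDR peak at 1 of the 10 genes, lin-7, and at none of the other 9. Its summit lay 302 bp upstream of the outer transcription start site (TSS) of lin-7. When the promoter window of a gene runs from 1000 bp before to 200 bp after each of its TSSs, this makes 1 of 10 genes (10%), against 8.15% of all protein-coding genes (1628 of 19973). With the gene body and 5000 bp on each side, it is again lin-7 alone, 1 of 10, against 21.1% of all protein-coding genes. The 10 genes are long, with a median of 8753.5 bp against 2027 bp for all protein-coding genes, so the second count searched more sequence per gene. When each IDR peak was given to its nearest protein-coding start at any distance, without a promoter window, the lin-7 peak went to elof-1. The count was then 0 of 10, against 7.24% of all protein-coding genes. From the first 1534 regions of 1 replicate, the promoter count was 2 of 10 without replicate 2 (lin-7 and sem-5), against 7.94% of all protein-coding genes, and 1 of 10 without replicate 1, against 7.27%. The count within 5000 bp was 3 of 10 without replicate 2 (lin-7, let-60 and sem-5), against 21% of all protein-coding genes, and 2 of 10 without replicate 1 (lin-7 and mpk-1), against 20%. Neither lin-3, the known target of synMuv repression, nor its receptor gene let-23 had an IDR summit in that range. The nearest were 17899 bp from lin-3, 173 bp upstream of fkb-1, and 20243 bp from let-23, 31 bp upstream of pir-1.

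The DNA under 4 summits is given here because it covers the IDR peak, 2 of the next 3 genes by rank and the strongest region inside lin-3. Each line holds 300 bases of the plus strand from RefSeq's WBcel235 assembly (ce11), with the summit as the 151st base. The windows are chrII:14349558-14349857 at lin-7, chrX:7962008-7962307 at sem-5, chrIV:11692323-11692622 at let-60 and chrIV:11056251-11056550 at lin-3. Capitals mark matches on either strand to E2F-like sites (TTCCCGC or TTGGCGC or TTCGCGC or TTGCCGC) and to the cell cycle homology region (TTCGAA or TTTGAA).
lin-7: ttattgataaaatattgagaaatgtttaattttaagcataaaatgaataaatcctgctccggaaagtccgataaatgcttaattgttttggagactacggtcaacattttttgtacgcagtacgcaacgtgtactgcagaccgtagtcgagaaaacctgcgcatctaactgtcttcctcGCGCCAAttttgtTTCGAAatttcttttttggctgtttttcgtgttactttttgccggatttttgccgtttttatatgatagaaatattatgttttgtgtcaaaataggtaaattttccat
sem-5: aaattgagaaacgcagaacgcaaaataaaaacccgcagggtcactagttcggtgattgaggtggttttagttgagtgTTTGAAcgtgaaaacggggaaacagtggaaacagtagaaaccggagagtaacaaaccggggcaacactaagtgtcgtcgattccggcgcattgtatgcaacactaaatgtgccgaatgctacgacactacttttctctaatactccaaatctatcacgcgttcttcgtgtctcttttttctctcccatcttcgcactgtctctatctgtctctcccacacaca
let-60: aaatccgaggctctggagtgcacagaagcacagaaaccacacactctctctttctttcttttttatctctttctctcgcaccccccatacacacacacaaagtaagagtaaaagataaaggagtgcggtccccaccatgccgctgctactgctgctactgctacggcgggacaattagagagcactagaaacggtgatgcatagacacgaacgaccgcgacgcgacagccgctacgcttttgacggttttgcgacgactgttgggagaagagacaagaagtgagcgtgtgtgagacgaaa
lin-3: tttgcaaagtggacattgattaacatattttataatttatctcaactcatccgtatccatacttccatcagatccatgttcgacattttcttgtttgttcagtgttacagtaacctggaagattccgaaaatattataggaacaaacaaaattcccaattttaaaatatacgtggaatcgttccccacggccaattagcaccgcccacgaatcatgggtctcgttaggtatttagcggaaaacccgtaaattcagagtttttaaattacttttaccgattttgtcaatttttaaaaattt

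In the lin-7 window, the E2F-like match began 29 bp to the right of the summit as printed and lay across the outer of the annotated elof-1 starts. The cell cycle homology match began 42 bp to the right of the summit. The sem-5 window held 1 cell cycle homology match, and the let-60 and lin-3 windows held neither motif. Over the strongest pooled region of each of the 10 genes, 2 windows (20%) had an E2F-like match, against 23.3% of the IDR peaks and 14.7% of 27480 lower-ranked regions over 1000 bp from an IDR summit. The lin-45 window was the other with an E2F-like match. The cell cycle homology region was in 4 of the 10 (40%), at lin-7, lin-10, sem-5 and lin-45, against 57.9% of IDR peaks and 60.8% of lower-ranked regions. In the strongest region of each gene, E-boxes (CANNTG), which basic helix-loop-helix proteins bind, were in 3 of 10 (30%), at lin-3, lin-10 and lin-45, against 68.6% of IDR peaks and 69.5% of lower-ranked regions. For lin-3 that region was the one at rank 4904, outside the gene in a coding exon of F36H1.3. The lin-3 window printed above, at rank 6835, held no E-box. With 10 windows, 1 window is 10 percentage points. GC content was 34% in the lin-7 and lin-3 windows, 45% at sem-5 and 50.7% at let-60, and the medians were 40.7% for IDR peaks and 39.7% for lower-ranked regions.

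The ligand gene lin-3 (WBGene00002992, chromosome IV 11054308 to 11063768, plus strand) had 5 pooled regions in its gene body or within 5000 bp, none above rank 4904. The strongest, with a signal of 16.8 and a q of 0.0968, lay 2115 bp upstream of the first TSS in a coding exon of the neighbouring gene F36H1.3. It ranked 2678 in replicate 1 and had no summit in replicate 2. Inside lin-3, the strongest was the intronic region printed above, at rank 6835 with a signal of 14.6 and a q of 0.205. Its summit was 2093 bp downstream of the first of the 7 annotated starts and 1263 bp upstream of the next group of starts. That region ranked 5428 in replicate 2 and was not found in replicate 1, and the same held for another intronic region 956 bp downstream of a TSS, which ranked 14143 in the pooled list and 5219 in replicate 2. The remaining 2 had ranks of 8684, at the 3′ end of lin-3 where it overlaps ttr-16, and 22557, in the intron 439 bp downstream of a TSS. No pooled region at lin-3 was found in both replicates, and none lay in the promoter window.

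The receptor gene let-23 (WBGene00002299, chromosome II 9197512 to 9207213, plus strand) had the lowest best rank of the 10 genes. Its 3 pooled regions ranked 17934, 18879 and 20290, with signals of 9.58, 9.33 and 8.99 and q values of 0.625 to 0.682. All 3 lay near or beyond the 3′ end of the gene, 6440 to 8851 bp downstream of its nearest TSS. The replicate lists placed 4 regions here in replicate 1, the best at rank 7050 in a coding exon of ZK1067.4, and 2 in replicate 2, the best at rank 14042. No region of either replicate was within 100 bp of one in the other.

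Among the genes that localise the receptor, lin-7 (WBGene00002996, chromosome II 14345844 to 14349406, minus strand), a PDZ domain protein, stood highest. Its peak at 14349566 to 14349849 had a signal of 89.7 and rank 205 in the pooled list. It ranked 259 in replicate 1 (signal 32.8) and 287 in replicate 2 (signal 50.5), with the replicate summits 4 bp apart, so both replicates placed it near the same position and rank. The summit was intergenic, 302 bp upstream of the outer TSS and 916 bp upstream of the inner one. It also lay 30 bp upstream of the outer start of elof-1 (WBGene00013219), a gene that encodes a transcription elongation factor homolog and is read in the other direction. The outer starts of the 2 genes were 332 bp apart. Ensembl lists a second elof-1 start at 14350153. In RefSeq's annotation of the same build elof-1 starts at that position, 445 bp from the summit, and lin-7 again 302 bp from it. Which gene's start is nearest therefore depends on whether the outer elof-1 start, given by Ensembl, is counted. Of all protein-coding genes, 284 (1.42%) had a promoter region at rank 205 or better. The other 5 pooled regions around lin-7 ranked 3869 to 23164, and 2 of them were found in both replicates.

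The MAGUK protein gene lin-2 (WBGene00002991, chromosome X 12399517 to 12414041, minus strand) had its strongest region at its inner start. That region, at 12406051 to 12406334, ranked 2504 with a signal of 23.8 and a q of 0.00819. Its summit was intronic, 332 bp upstream of the inner TSS and 7848 bp downstream of the outer one. It ranked 1587 in replicate 1 and 6229 in replicate 2, at 65 and 83 bp from the pooled summit and 18 bp from each other. At the outer TSS, replicate 1 had a region 510 bp upstream with rank 4054, in an exon of the noncoding RNA F17E5.6, with no summit within 100 bp in replicate 2. The third gene of this group, lin-10 (WBGene00002999, chromosome I 8109746 to 8119316, minus strand), which encodes an adaptor with PDZ domains, had 11 pooled regions, the most of the 10 genes. The highest ranked 3451 (signal 19.8, q of 0.0355), in a coding exon 6213 bp downstream of the nearest TSS, and was found in replicate 2 alone at rank 2839. At the promoter, a region 28 bp upstream of the TSS ranked 12976 in the pooled list and 4296 in replicate 2, and was not found in replicate 1.

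**Figure D1:**
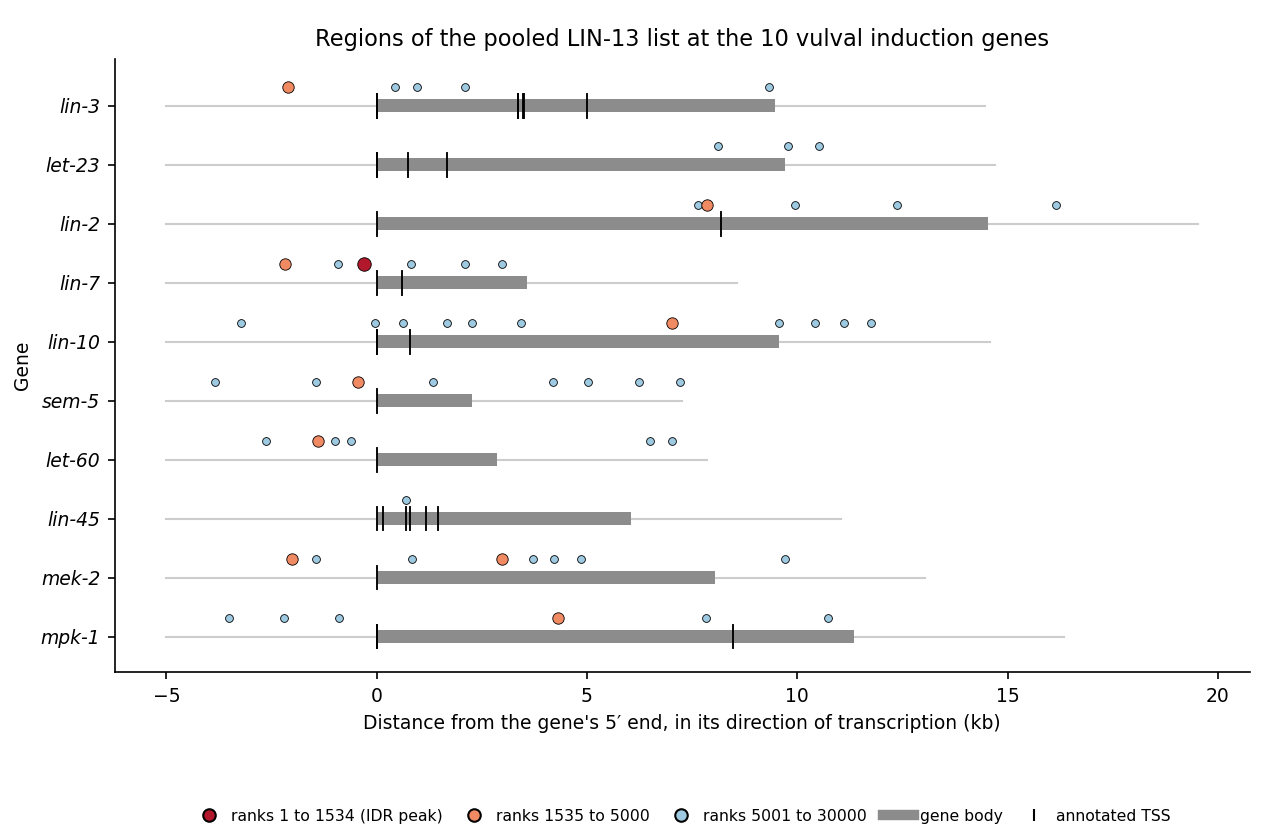
Pooled-list regions (circles, red for IDR peaks, orange for ranks 1535 to 5000, blue for lower ranks) along each gene, with the distance in kb from the gene's 5′ end on the x axis and 1 row per gene, grey bars for gene bodies, black ticks for annotated TSSs and thin lines for the 5000 bp on each side. The single IDR peak is at lin-7, and 9 regions with ranks from 1535 to 5000 lie at 8 genes, with none of that rank at let-23 or lin-45.

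The adaptor gene sem-5 (WBGene00004774, chromosome X 7959453 to 7961723, minus strand), the worm Grb2, came next to lin-7 among promoters. Its region at 7962016 to 7962299 was intergenic, 435 bp upstream of the only TSS, with a signal of 31.5 against the 32.8 at the last IDR rank. It ranked 1627 in the pooled list with a q of 0.000922, 1354 in replicate 1 (signal 14.4) and 2502 in replicate 2 (signal 17.4), so it was found in both replicates. Of all protein-coding genes, 1687 (8.45%) had a promoter region at that rank or better. Replicate 2 had a further region at rank 4214, 223 bp upstream, which replicate 1 lacked. A second strong region of replicate 1, at rank 1319 and 4125 bp upstream, was not found in replicate 2. The 8 pooled regions around sem-5 amounted to 6.52 per 10 kb, the densest of the 10 genes, and 4 of them were found in both replicates.

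The Ras gene let-60 (WBGene00002335, chromosome IV 11688227 to 11691088, minus strand) had its strongest region beyond the promoter window. That region, at 11692331 to 11692614, ranked 1686 with a signal of 30.8 and a q of 0.00089. Its summit was 1385 bp upstream of the TSS, in an exon of the noncoding RNA ZK792.10, and the nearest protein-coding start, 1320 bp away, was that of ZK792.12. Replicate 1 ranked it 1080 (signal 16.7). Replicate 2 had a summit 14 bp from that of replicate 1 at rank 4640 (signal 13.7), which was just beyond 100 bp from the pooled summit. Within the promoter window the best pooled rank was 12214, 608 bp upstream, a region found in replicate 2 alone. The nearest IDR summit was 85948 bp from the gene, the farthest of the 10, and belonged by nearest start to rps-11.

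The Raf gene lin-45 (WBGene00003030, chromosome IV 6742537 to 6748572, minus strand) had 1 pooled region in 16036 bp, or 0.62 per 10 kb, the sparsest of the 10 genes. It lay in a 5′ untranslated exon 17 bp downstream of 1 of the 6 annotated starts, with rank 6304, a signal of 15.1 and a q of 0.179. The replicates differed in rank there, with 29852 in replicate 1 and 4332 in replicate 2. The MEK gene mek-2 (WBGene00003186, chromosome I 3005403 to 3013448, minus strand) had no pooled region in its promoter window. Its strongest, at rank 2951 with a signal of 21.4 and a q of 0.0188, was 2021 bp upstream of the mek-2 start and 273 bp upstream of the divergent gene nobh-1. It ranked 10593 in replicate 1 and 3236 in replicate 2. The next, at rank 3858, was in an intron of mek-2 but 211 bp upstream of col-48, a collagen gene on the opposite strand inside mek-2, and was found in replicate 2 alone at rank 2531.

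The ERK gene mpk-1 (WBGene00003401, chromosome III 4216763 to 4228108, minus strand) had the highest-ranked region of the 9 genes without an IDR peak. It lay in an intron, with rank 1613, a signal of 31.6 and a q of 0.000309, the smallest q in the pooled list, which ranks 1 to 1618 share. The summit was 4144 bp upstream of the inner TSS and 4307 and 4321 bp downstream of the 2 outer ones, so it was at no annotated start. Replicate 2 ranked it 1318 (signal 23.7). Replicate 1 had no summit within 100 bp, but its nearest region was just beyond that distance. Its summit was at 4223902, against 4223787 in the pooled list and 4223797 in replicate 2. That replicate 1 region ranked 6041, with a signal of 6.33 and a q of 0.0127. In the promoter window the best pooled rank was 13097, 643 bp upstream of the inner TSS, and that region was found in replicate 2 alone at rank 6062.

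**Figure D2:**
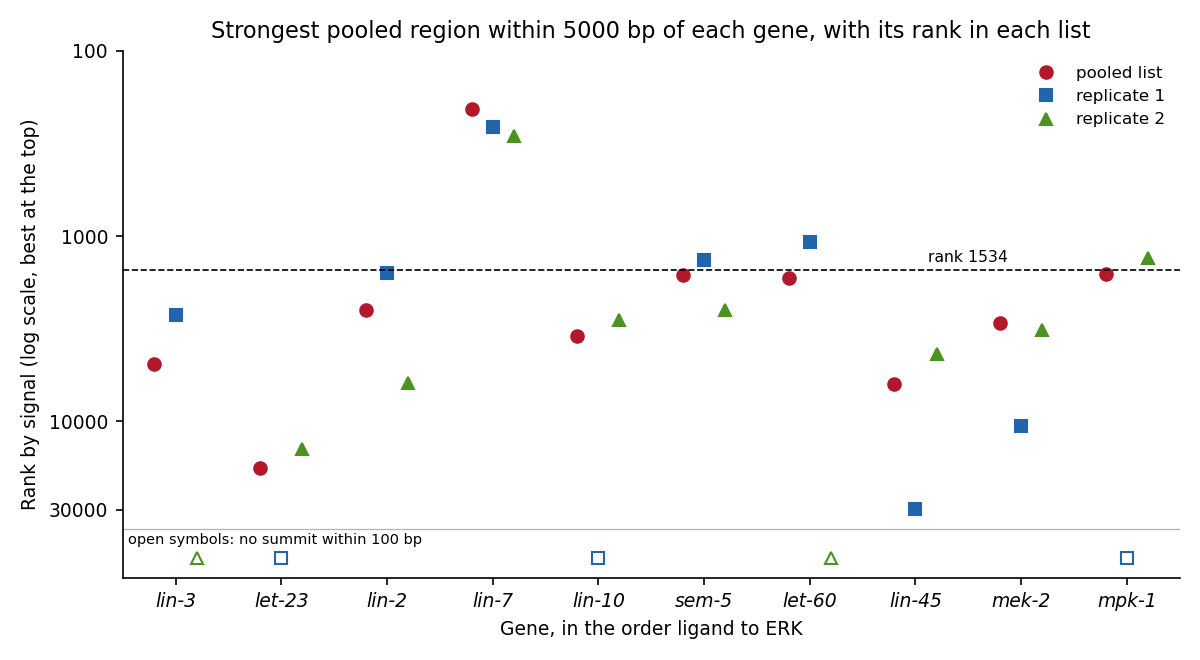
Rank (log scale, best rank at the top) of the strongest pooled region in the body or within 5000 bp of each gene, in the pooled list (circles), replicate 1 (squares) and replicate 2 (triangles). The dashed line is rank 1534, and open symbols at the bottom stand for no summit within 100 bp. The lin-7 symbols sit together at ranks 205 to 287, while mpk-1, sem-5 and let-60 lie just past the line at 1613, 1627 and 1686 in the pooled list.

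Across the 10 genes the replicates shared their weaker regions in part. The 59 pooled regions amounted to 3.33 per 10 kb of the searched sequence, against 2.99 per 10 kb over the 6 chromosomes. Of the 59, 28 had their summit in the gene body and 13 in the promoter window, and 33 lay nearer to a start of another protein-coding gene than to that of the member. Of the same 59, 15 (25.4%) were found in both replicates, against 18.3% of all 30000 pooled regions. With summits within 50 bp the 15 became 3, and the share of all pooled regions at that distance was not computed. A further 8 were found in replicate 1 alone, 23 in replicate 2 alone and 13 in neither. By rank, the lin-7 peak was the only one from 1 to 1534 and was found in both replicates, as were 89.5% of all regions of that rank. Of the 9 from 1535 to 5000, 4 were found in both (44.4%), against 49.8% of all regions of that rank. Of the 49 from 5001 to 30000, 10 were (20.4%), against 9.5%. Compared directly, 15 of the 58 replicate 1 regions at these genes (25.9%) had a replicate 2 summit within 100 bp, against 17.7% of all replicate 1 regions. These 15 lay at lin-2, lin-7, lin-10, sem-5, let-60, lin-45 and mek-2, and lin-3, let-23 and mpk-1 had none. At mpk-1, the summits of the 2 replicates nearest the strongest pooled region were just beyond 100 bp apart.

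Regions of any pooled rank were frequent at the promoters of these genes. In the promoter window, 7 of 10 had one (70%), all but lin-3, let-23 and mek-2, against 41.3% of all protein-coding genes. These windows were larger than usual, since the 10 genes have a median of 2.5 annotated starts and 2202 bp of promoter window, against 1 start and 1201 bp for all protein-coding genes, and the part of this difference in the count was not tested. The best promoter rank had a median of 6304 over the 7 genes, against 8265 over the 8258 protein-coding genes with such a region. In the gene body or within 5000 bp, all 10 genes had a pooled region, as did 88.1% of all protein-coding genes, so a region of some rank there says little about a gene.

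**Figure D3:**
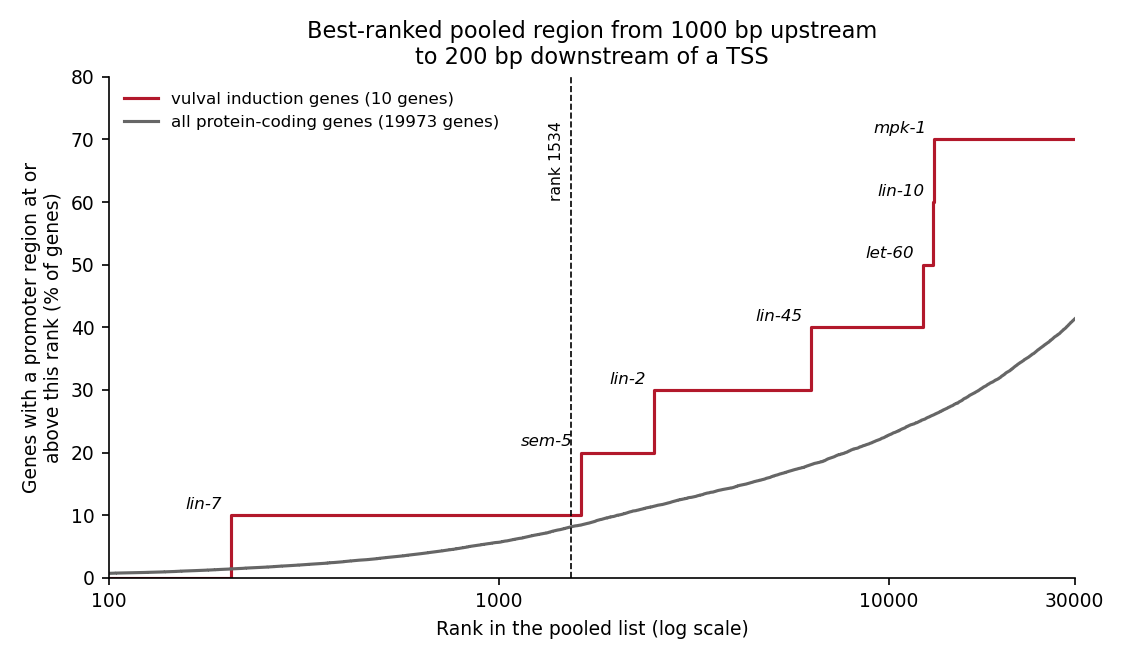
Cumulative share of genes (%) whose promoter window holds a pooled region at or above the rank on the x axis (log scale), for the 10 vulval induction genes (red steps, each labelled with the gene) and all 19973 protein-coding genes (grey). At the dashed line, rank 1534, the red line is at 10% and the grey line at 8.15%, and at the end of the list they reach 70% and 41.3%.

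The IDR peaks nearest to the other genes belonged to neighbours by nearest coding start, in part from over 1000 bp away. They lay 5300 bp from lin-10 (1185 bp upstream of mau-2), 5492 bp from lin-2 (233 bp upstream of F17E5.2), 7662 bp from sem-5, 8065 bp from lin-45 (674 bp upstream of usp-4), 8349 bp from mpk-1 (3238 bp upstream of nhr-20) and 9025 bp from mek-2 (110 bp upstream of dnj-28). The strongest of these 6 was that of F17E5.2, with rank 144 in the pooled list and ranks of 42 and 440 in replicates 1 and 2. The sem-5 neighbour peak, 2563 bp upstream of dct-1, was in exons of the noncoding RNAs C14F5.10 and C14F5.11 and had no summit in replicate 1. With 10000 bp on each side in place of 5000 bp, 7 of 10 of these long genes therefore had an IDR summit in range, against 31.4% of all protein-coding genes.

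Of 51 other genes of vulval induction, 2 had an IDR peak in the promoter window (3.92%, against the 8.15% of all protein-coding genes), and both encode nuclear factors. The first was eor-2 (WBGene00001325, chromosome X), which encodes a nuclear protein that acts with EOR-1 downstream of Ras signalling. Its peak was 191 bp before the TSS, at rank 812 and signal 47.9, and it ranked 2896 in replicate 1 and 813 in replicate 2. The other was sur-2 (WBGene00006349, chromosome I), which encodes the Mediator subunit MED23 and acts downstream of MPK-1. Its peak was 135 bp upstream with a signal of 37.6, rank 1231, and ranks of 933 and 1686 in replicates 1 and 2. The nuclear factor list had 9 genes in all (22.2% with a peak). The order of these shares depended on the counting. With the 767 strongest peaks 0 of the 51 genes had one, against 4.58% of all protein-coding genes, and with 2000 bp upstream 5 had one (9.8%, against 10.3%). With the first 3068 pooled ranks 9 of the 51 had one (17.6%, against 12.8%), and with each peak given to its nearest start 6 had one (11.8%, against 7.24%). In the promoter window as first defined, none of 18 Ras pathway modifiers, 8 Notch genes and 16 Wnt genes had one. The 6 by nearest start were eor-2, sur-2 and hlh-2, the Ras pathway modifier sli-1, and the Wnt genes kin-19 and cam-1. The 5 with 2000 bp upstream were the same genes without cam-1. Of the 51, 4 had a best promoter region at ranks from 1535 to 2000: sel-12, the presenilin (1563), ptp-2, the SHP2 phosphatase (1630), lin-25 (1922) and unc-101, a clathrin adaptor subunit (1949). The share of all protein-coding genes in that band was not counted. In replicates 1 and 2 these regions ranked 1306 and 3575 at sel-12, and 12701 and 1392 at ptp-2. They ranked 1070 and 5376 at lin-25, and 4245 and 19873 at unc-101. Regions of any pooled rank were in the promoter window of 35 of the 51 (68.6%), against 70% of the 10 core genes and 41.3% of all protein-coding genes. The promoter window size of the 51 genes was not measured. An IDR summit in the gene body or within 5000 bp was found for 10 of the 51 (19.6%), against 21.1% of all protein-coding genes.

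**Figure D4:**
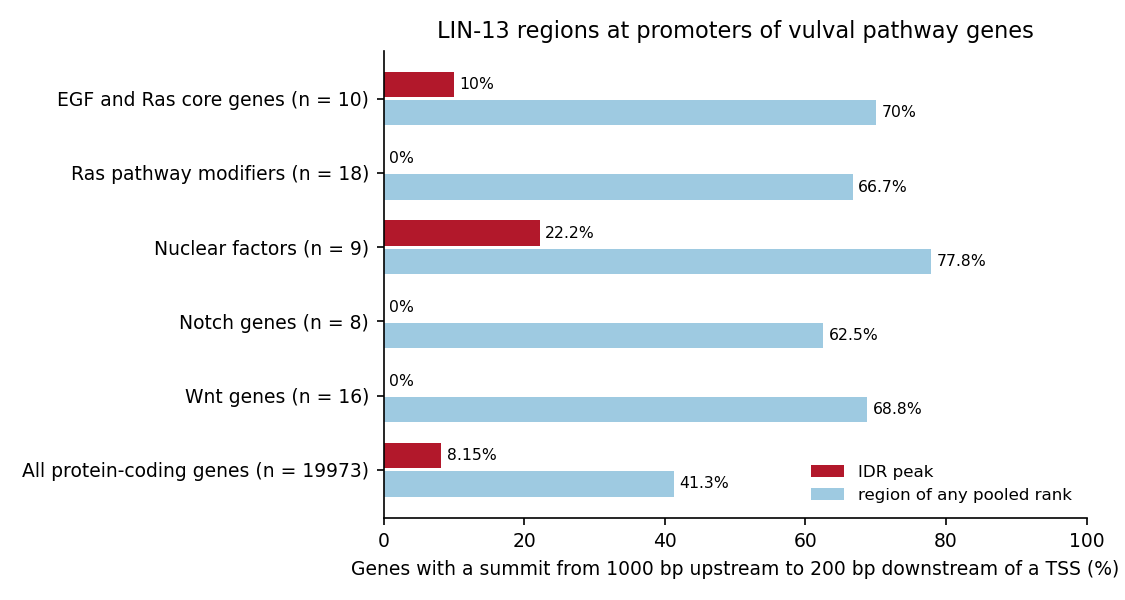
Share of genes (%) with a summit in the promoter window (1000 bp before to 200 bp after a TSS), for IDR peaks (red) and regions of any pooled rank (blue), in the 10 core genes, 4 lists of other vulval pathway genes and all protein-coding genes. IDR peaks appear at 1 of 10 core genes and 2 of 9 nuclear factors, against 8.15% of all protein-coding genes. In this window they appear at none of the Ras modifiers, Notch genes or Wnt genes listed, and these counts change with the way of counting.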

How the data were processed

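LIN-13 was profiled in 2 replicates of 1 group. The deposited region lists are in narrowPeak format. The authors called regions in each replicate and in the pool of both against a control and drew the final set from them by IDR, per the file headers deposited with them. Which aligner, caller and IDR threshold they used is not given in the sources used here. Column 7 of the deposited lists is the caller's signal, used here for ranks within a list and for the description of regions. Column 9 is the authors' −log10 q value, printed here as q. The 4 ce11 lists were used with the Ensembl 115 annotation of WBcel235, the same build, and every region ended within the reference chromosomes. The ce10 lists were not used, since positions were not converted.

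Summits (column 2 plus column 10) were assigned to genes in Python 3.11.15, and the assignment was checked on planted positions. A start is that of any annotated transcript. Motifs were searched on both strands in 300 bp, and the sequence of 1 region and its motif result are not reported here. The genes named are the 10 members, the other pathway genes with an IDR promoter peak, and the nearest coding genes of the strongest regions. The 4 other pathway genes with ranks from 1535 to 2000 and those added by other settings were named after their values were seen. So were the genes at the nearest IDR peaks and the other neighbours. Members and lists were chosen with earlier results of these data known. The alternatives were other windows, stricter and looser peak sets, other summit distances and each replicate alone.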

Additional observations from a re-analysis of the deposited data

How the results depend on the processing

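The count of 1 of 10 genes with an IDR peak in the promoter window was the same, with lin-7 the gene, for windows of 500 or 2000 bp upstream or 1000 bp downstream, for the 767 strongest IDR peaks and for the 790 in the top of both replicates. It was 3 (lin-2, lin-7, sem-5) with 3068 pooled ranks, and 1 to 2 from the top 1534 regions of a single replicate, sem-5 being added without replicate 2. With nearest coding starts at any distance in place of the promoter window it was 0. The count within 5000 bp was 1 with the 767 and with the 790 peaks, for which the share of all genes was not computed. With 2000 bp in place of 5000 bp the count was also 1 (all protein-coding genes 13.7%). It was 7 within 10000 bp, 6 with 3068 pooled ranks (all protein-coding genes 33.8%) and 2 to 3 from a single replicate: lin-7 and mpk-1 without replicate 1 (all genes 20%), and lin-7, let-60 and sem-5 without replicate 2 (all genes 21%). The 51 other pathway genes gave 5 (9.8%) with 2000 bp upstream, 0 with the 767 strongest peaks, 0 with the 790 in both tops, 9 (17.6%) with 3068 ranks, 6 (11.8%) with nearest starts at any distance, and 3 (5.88%) from either replicate alone. All protein-coding genes gave 1343 (6.72%) with 500 bp upstream, 2051 (10.3%) with 2000 bp upstream and 1705 (8.54%) with 1000 bp downstream. They gave 914 (4.58%) with the 767, 964 (4.83%) with the 790 and 2556 (12.8%) with 3068 ranks. Nearest starts gave 1446 (7.24%), and a single replicate 1452 to 1586. Regions found in both replicates fell to 3 of 59 with summits within 50 bp, 3 with the first 10000 ranks of each replicate and 2 with the first 5000, and were 19 within 200 bp. The shares over all pooled regions were not computed for these settings, so these counts have no background beside them. The cause of these differences was not tested. No paired analysis was possible because there was 1 group. Depth is unknown, so weak and absent signal cannot be told apart.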
